A study of Mus musculus with 12 samples.

Results

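The genes described here are 32 members of the machinery of inflammatory cell death in mouse macrophages: the inflammasome sensors and their adaptors, the effectors of pyroptosis, the death receptor signalling proteins and the necroptosis pair Ripk3 and Mlkl. They were chosen by symbol, through the GENCODE M21 annotation, from the 23438 genes of the deposited table, and all 32 were found. The samples were bone marrow derived macrophages (BMDMs), that is macrophages grown from bone marrow, taken after 7 days of differentiation. They were grown from atherosclerotic C57 mice. There were 5 libraries from Baf60a knockout (KO) cells and 7 from wild-type (WT) cells, and the only comparison the study states is KO against WT. Baf60a is the protein of Smarcd1, a subunit of the SWI/SNF complex, which moves nucleosomes. Neither the Cre driver or allele of the knockout, nor the diet or age of the mice, is given in the sources used here. The labels name no added stimulus beyond differentiation.

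An inflammasome is a protein complex that assembles in the cytosol when a sensor such as NLRP3, AIM2 or a NAIP protein detects danger or microbial products. It activates caspase 1, which matures interleukin 1 beta and interleukin 18 and cuts gasdermin D into a pore-forming fragment; the protein NINJ1 then ruptures the dying cell's membrane, and this death is called pyroptosis. Necroptosis is a separate lytic death, in which RIPK1 and RIPK3 activate the membrane-damaging protein MLKL when caspase 8 does not stop them. In resting macrophages several of these transcripts, Il1b above all, are known to be low until a microbial signal primes the cell.

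The values were TPM, the share of a library's transcripts that a gene takes after correction for length, so levels can be set beside each other between genes. TPM keeps no depth, so the number of reads behind each value is unknown. The targeted gene Smarcd1 averaged 6.90 ± 0.579 TPM in KO and 13.6 ± 1.40 TPM in WT (SD, n = 5 and n = 7), with no overlap. WT replicates 2, 3 and 4 stood apart from the other 9 libraries: the summed TPM of 10 fibroblast and smooth muscle markers lay between 191 and 606 in KO, between 113 and 426 in WT replicates 1, 5, 6 and 7, and between 3909 and 9804 in WT replicates 2, 3 and 4. This sum is called the stromal sum below. Of the 10 markers, 8 were higher in WT replicates 2, 3 and 4 than in the other WT libraries, and Dcn and Lum overlapped. Acta2 (1574 to 4236 TPM) and Tagln (1467 to 3563 TPM) were the largest parts of the sum in WT replicates 2, 3 and 4. The summed neutrophil markers lay between 1013 and 6268 TPM in KO. They lay between 1202 and 1557 TPM in WT replicates 1, 5, 6 and 7, and between 151 and 174 TPM in WT replicates 2, 3 and 4. Of the 10 neutrophil markers, 8 were lower in WT replicates 2, 3 and 4 than in the other WT libraries and Ly6g overlapped. Mmp8 went the other way, at 65.6 to 72.2 TPM against 8.19 to 11.4 TPM. Marco, Siglecf, Pparg and Car4 summed to between 12.4 and 21.1 TPM in KO, between 13.2 and 17.8 TPM in WT replicates 1, 5, 6 and 7, and between 1195 and 2050 TPM in WT replicates 2, 3 and 4. Marco alone held 1186 to 2043 TPM of that last sum. In WT replicates 2, 3 and 4, Siglecf was at 0.13 to 0.20 TPM and Pparg at 5.23 to 9.09 TPM. Both lay below WT replicates 1, 5, 6 and 7, and Car4 was at 0 TPM in all libraries. All 10 macrophage markers reached 1 TPM. Their sum lay between 11015 and 11882 TPM in KO, between 20389 and 23198 TPM in WT replicates 1, 5, 6 and 7, and between 7347 and 25091 TPM in WT replicates 2, 3 and 4. Between KO and WT replicates 1, 5, 6 and 7, 8 of the 10 overlapped. Lyz2, the lysozyme gene that makes up most of the sum in these WT libraries, lay between 4932 and 5853 TPM in KO, against 14635 to 16912 TPM, and Cd14, a co-receptor for lipopolysaccharide, between 507 and 526 TPM in KO, against 315 to 482 TPM. The part of these marker differences in the results on KO was not tested. In bulk RNA, fewer cells of a type and less RNA per cell cannot be told apart. Counts of called genes are given for all 12 libraries and for the 9 that remain without WT replicates 2, 3 and 4.

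Mlkl and Ripk3, the executioner pair of necroptosis, were higher in KO than in WT replicates 1, 5, 6 and 7, while Ninj1 and Naip2, a sensor gene for bacterial secretion systems, were lower. These were the 4 members, of 31 tested, that passed the threshold with 9 libraries (limma, Benjamini-Hochberg adjusted p under 0.05 over 11152 genes). The 9 libraries were chosen with measured values known, and the WT libraries left out held the highest Mlkl and Ripk3 values of all 12. The adjusted p-values with 9 libraries take no account of that choice. The 2 higher members stand against 1.61% of all genes called higher, and the 2 lower members against 0.717% called lower. In either direction, 2.33% of all genes were called with 9 libraries. With all 12 libraries 0 of the 31 members passed, where 0.126% of all genes did (0.108% higher and 0.0179% lower). At an unadjusted limma p under 0.05, 6 members were higher and 2 lower with 12 libraries, beside 14.3% and 3.22% of all genes, and with 9 libraries 6 were higher and 3 lower, beside 14.6% and 4.29%. The median log2 fold change of the 31 members was 0.06 with 9 libraries and 0.12 with 12, beside 0.05 and 0.04 over all genes. The remaining member, Naip1, was at or below 0.53 TPM everywhere and was not tested. Whether each library stems from a mouse of its own is not given, so p-values reflect variation among these libraries that may be technical.

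**Figure D1:**
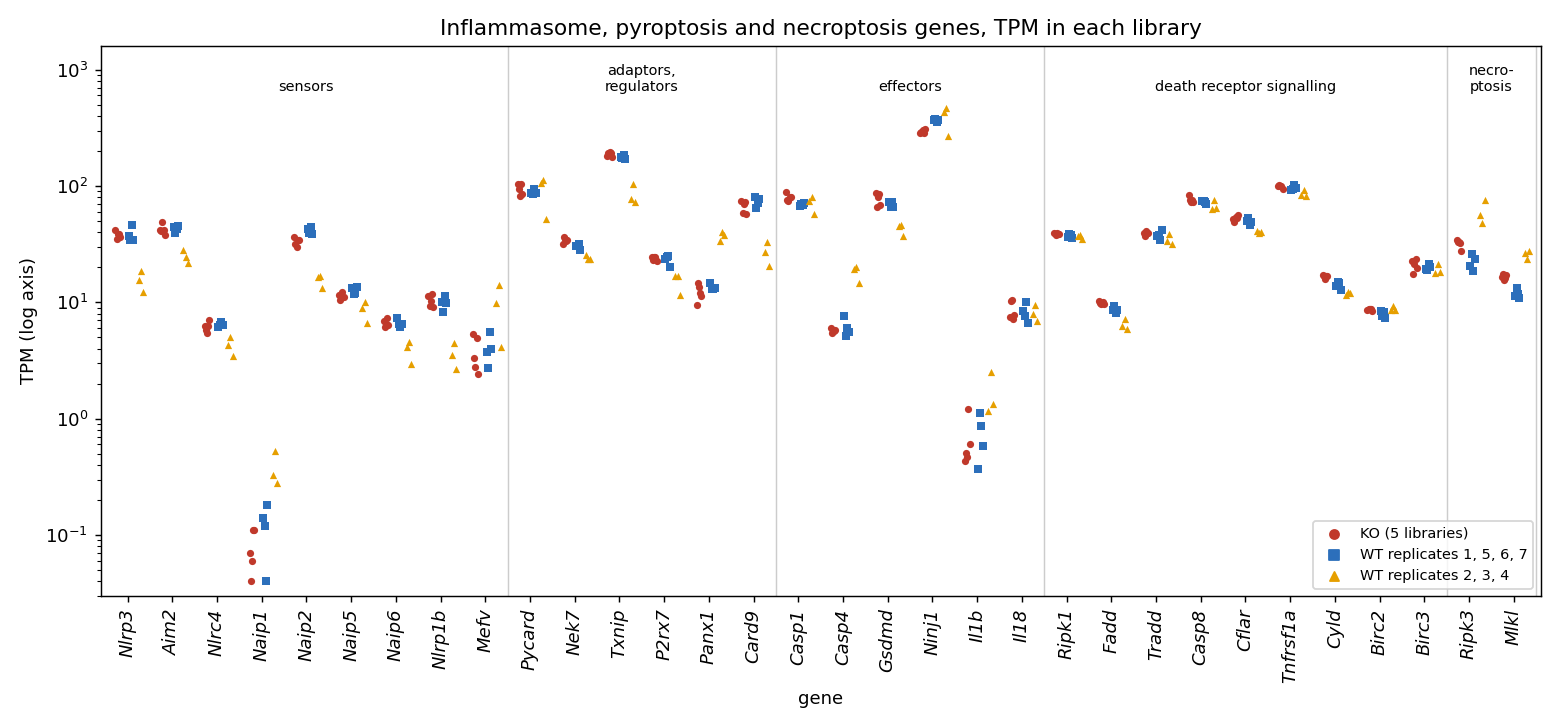
TPM of the 32 genes (log axis) in each library, ordered by role, with KO as circles, WT replicates 1, 5, 6 and 7 as squares and WT replicates 2, 3 and 4 as triangles. Ninj1 was the most abundant member, at 272 to 466 TPM, and Il1b and Naip1 were the least abundant, at no more than 2.51 and 0.53 TPM.

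The levels of the members spanned a wide range. In WT the means ran from 377 ± 61.4 TPM for Ninj1 (SD, n = 7) through 138 ± 50.7 TPM for Txnip, 91.8 ± 7.24 TPM for Tnfrsf1a and 89.2 ± 19.1 TPM for Pycard to 0.231 ± 0.164 TPM for Naip1. Of the 31 pairs of neighbours in this order, 28 did not differ beyond their spread, that is, the intervals of mean ± SD overlapped, as for Casp8 at 70.5 ± 4.97 TPM and Casp1 at 69.8 ± 6.93 TPM. The 3 that did were Ninj1 above Txnip, Naip6 above Il1b and Il1b above Naip1. These SDs include the gap between WT replicates 2, 3 and 4 and the other WT libraries. Txnip, for example, was at 73.3 to 103 TPM in the former and at 171 to 187 TPM in the latter. The overlap also takes no account of genes being measured in the same libraries. In KO the adaptor Pycard averaged 94.3 TPM, the protease gene Casp1 79.9 TPM and the pore protein gene Gsdmd 77.8 TPM, above every sensor, of which Aim2 at 42.5, Nlrp3 at 38.0 and Naip2 at 33.4 TPM were the most abundant.

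The 250 bases upstream of the RefSeq start (build GRCm38.p6) are given for the 4 genes called with 9 libraries, since 2 of them rose together and 2 fell. Capitals mark every match, on either strand, to 8 motifs searched, all written 5′ to 3′. The AP-1 site was searched as TGANTCA. The PU.1 site was searched as GAGGAAG. The GC box was searched as GGGCGG. The CCAAT box was searched by the letters of its name. The E-box was searched as CACGTG. The ETS site was searched as CCGGAAG. For the core of the interferon-stimulated response element, the letters were GAAA on both sides of 2 free bases. For NF-kB, a match opened with GGGA and closed, after 4 free bases, with a pair of C.
Mlkl, chr8:111338206-111338455, minus strand: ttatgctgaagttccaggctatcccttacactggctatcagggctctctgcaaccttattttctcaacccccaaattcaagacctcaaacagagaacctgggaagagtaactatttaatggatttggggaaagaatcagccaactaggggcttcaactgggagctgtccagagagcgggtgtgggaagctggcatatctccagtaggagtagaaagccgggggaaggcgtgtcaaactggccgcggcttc
Ripk3, chr14:55788858-55789107, minus strand: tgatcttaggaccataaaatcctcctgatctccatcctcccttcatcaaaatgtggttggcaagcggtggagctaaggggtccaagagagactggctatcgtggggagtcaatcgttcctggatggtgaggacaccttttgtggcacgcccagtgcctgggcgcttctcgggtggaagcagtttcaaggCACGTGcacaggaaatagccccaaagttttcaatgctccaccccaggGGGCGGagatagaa
Ninj1, chr13:49187279-49187528, plus strand: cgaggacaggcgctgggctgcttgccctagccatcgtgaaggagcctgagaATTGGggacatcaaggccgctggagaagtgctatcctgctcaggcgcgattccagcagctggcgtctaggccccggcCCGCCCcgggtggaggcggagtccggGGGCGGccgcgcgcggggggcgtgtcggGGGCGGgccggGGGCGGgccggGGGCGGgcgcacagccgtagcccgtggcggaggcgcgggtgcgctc
Naip2, chr13:100202123-100202372, minus strand: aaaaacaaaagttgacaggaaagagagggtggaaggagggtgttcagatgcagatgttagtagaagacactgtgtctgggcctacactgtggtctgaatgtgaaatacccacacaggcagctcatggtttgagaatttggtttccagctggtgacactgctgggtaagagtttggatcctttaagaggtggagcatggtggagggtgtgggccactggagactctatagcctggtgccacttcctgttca
Mlkl and Naip2 held none of the 8 motifs in these letters. Ripk3 held 1 GC box and 1 E-box, and Ninj1 held 5 GC boxes and 1 CCAAT match, read as ATTGG on the other strand. GC boxes occur in 32.7% of all 32851 promoters of this length, CCAAT in 33.8% and the E-box in 6.02%, and 10 of the 30 members with a RefSeq promoter held a GC box. A member was counted if any of its promoters held the motif, while the percentages are shares of single promoters. The interferon element occurs in 2.98% of all promoters and in 0 of the 30 members. These matches describe letters in a window and say nothing of which factor binds.

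Among the sensors, Naip2 was the member that fell. NAIP proteins bind bacterial flagellin or parts of the type III secretion system and then assemble NLRC4; in mice NAIP2 recognises the rod protein, and NAIP5 and NAIP6 recognise flagellin. Naip2 (chromosome 13, 100144063 to 100202092 in mm10, minus strand) stood at 36.1, 31.99, 30.1, 34.4 and 34.5 TPM in the KO libraries, against 43.0, 39.5, 44.5 and 38.6 TPM in WT replicates 1, 5, 6 and 7 and 16.5, 16.9 and 13.4 TPM in WT replicates 2, 3 and 4. All KO libraries lay below the first 4 and above the last 3 WT libraries. The log2 fold change was -0.30 ± 0.0631 (SE) with 9 libraries, on the log2(TPM + 1) scale that holds for every fold change here (limma adjusted p of 0.0437), and 0.28 ± 0.31 with 12 (adjusted p of 0.558). The call with 9 libraries was lost in 8 of 9 cases when a further library was left out, with adjusted p-values up to 0.13, and remained without KO replicate 1. The Naip genes are close paralogs in 1 cluster, and Salmon divides reads they share by its model, so the level of each is uncertain.

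The other tested sensors had no call in either set of libraries. Naip5 averaged 11.4 ± 0.711 TPM in KO (SD, n = 5), against 12.7 ± 0.842 TPM in WT replicates 1, 5, 6 and 7 (SD, n = 4), and its log2 fold change was -0.14 with 9 libraries (adjusted p of 0.249 by limma). Naip6 averaged 6.68 ± 0.468 TPM in KO and 6.59 ± 0.49 TPM in the same WT libraries. Their shared partner Nlrc4 averaged 6.15 ± 0.593 TPM in KO and 6.40 ± 0.272 TPM in those WT libraries. Nlrp3, which senses potassium efflux and many other disturbances, was at 41.7, 35.1, 38.7, 38.5 and 36.1 TPM in KO, against 37.3, 34.4, 45.8 and 34.4 TPM in WT replicates 1, 5, 6 and 7 and 15.7, 18.7 and 12.3 TPM in WT replicates 2, 3 and 4. The KO range lay inside that of the first 4 WT libraries and above the last 3. With 9 libraries its log2 fold change was 0.01, with a 95% interval of -0.19 to 0.20. With 12 libraries it was 0.54 (limma adjusted p of 0.32).

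Aim2, the sensor of cytosolic DNA, was at 38.3 to 49.0 TPM in KO and 39.7 to 45.2 TPM in WT replicates 1, 5, 6 and 7, with 28.4, 24.6 and 21.6 TPM in WT replicates 2, 3 and 4. Its log2 fold change was -0.02 with 9 libraries (95% interval -0.17 to 0.13) and 0.31 with 12. Nlrp1b, a sensor cut by anthrax lethal factor, lay between 9.12 and 11.9 TPM in KO and between 8.25 and 11.4 TPM in the same 4 WT libraries, against 3.52, 4.47 and 2.67 TPM in WT replicates 2, 3 and 4. Mefv encodes pyrin, a sensor of inactivated RhoA that is best known from granulocytes and monocytes. It was at 5.30, 3.31, 2.76, 4.98 and 2.40 TPM in KO replicates 1 to 5, and the summed neutrophil markers of these libraries were 6268, 2112, 1921, 4382 and 1013 TPM. The highest Mefv values in KO were in the libraries with the most neutrophil transcripts, whose part in Mefv was not tested. In WT replicate 3, Mefv was highest of all at 14.1 TPM, where the neutrophil sum was 155 TPM. Most of that sum was S100a8 (77.0 TPM) and Mmp8 (68.9 TPM).

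Among adaptors and regulators, none passed the threshold, and Nek7 came closest to separating the genotypes. NEK7 is the kinase-family protein that NLRP3 needs for assembly. Nek7 was at 32.02, 36.3, 35.3, 33.4 and 34.3 TPM in KO, against a lowest value of 23.4, a median of 27.9 and a highest of 31.98 TPM over the 7 WT libraries. The lowest KO value was 32.02 TPM and the highest WT value 31.98 TPM, so the ranges met without crossing. The log2 fold change was 0.17 ± 0.0506 (SE) with 9 libraries (limma adjusted p of 0.102) and 0.31 ± 0.0861 with 12 (adjusted p of 0.207). Nek7 was 1 of 3 tested members, with Fadd and Cyld, whose KO values all lay above all 7 WT values, beside 2.92% of all genes; 0 members lay below all WT values, beside 0.637% of all genes.

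Pycard, which encodes the adaptor ASC, averaged 94.3 ± 10.3 TPM in KO (SD, n = 5) and 89.2 ± 19.1 TPM in WT (SD, n = 7). Card9, the adaptor of C-type lectin receptors, averaged 66.8 ± 8.11 TPM in KO (SD, n = 5), against 73.9 ± 7.19 TPM in WT replicates 1, 5, 6 and 7 (SD, n = 4) and 27.3, 33.2 and 20.7 TPM in WT replicates 2, 3 and 4. Its direction therefore turned with the set of libraries, with a log2 fold change of -0.15 for 9 and 0.47 for 12, and limma made no call in either. Txnip, a thioredoxin-binding protein reported to bind NLRP3, lay between 177 and 196 TPM in KO and between 171 and 187 TPM in WT replicates 1, 5, 6 and 7. P2rx7, the ATP-gated channel that lets potassium out, lay between 22.8 and 24.8 TPM in KO and between 20.1 and 25.2 TPM in those WT libraries. Panx1, the channel that releases ATP, ran the other way across the WT libraries: 9.54 to 14.6 TPM in KO, 13.0 to 14.8 TPM in WT replicates 1, 5, 6 and 7, and 34.0, 40.0 and 38.0 TPM in WT replicates 2, 3 and 4. With 9 libraries the limma adjusted p-values of these 5 genes lay between 0.325 and 0.796.

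Among the effectors, Ninj1 fell. NINJ1 is a membrane protein whose clustering ruptures the plasma membrane at the end of pyroptosis and other lytic deaths. Ninj1 (chromosome 13, 49187485 to 49196244, plus strand) was at 288, 293, 302, 285 and 308 TPM in KO, against 366, 375, 355 and 372 TPM in WT replicates 1, 5, 6 and 7 and 432, 466 and 272 TPM in WT replicates 2, 3 and 4. All KO libraries lay below all WT libraries except WT replicate 4, which was lowest of all 12. The log2 fold change was -0.31 ± 0.0333 (SE) with 9 libraries (limma adjusted p of 0.00318), so that it fell by 19.5% on this scale. The call was kept whichever of the 9 libraries was left out, with adjusted p-values between 0.00339 and 0.0231. With 12 libraries the log2 fold change was -0.33 ± 0.108 and missed the threshold (adjusted p of 0.218 by limma).

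Casp1, the inflammatory caspase, was at 88.7, 76.5, 74.8, 79.9 and 79.8 TPM in KO, against 67.3, 69.9, 68.3 and 71.8 TPM in WT replicates 1, 5, 6 and 7 and 74.0, 80.1 and 57.5 TPM in WT replicates 2, 3 and 4. All KO libraries lay above the first 4, but not above WT replicate 3. Its log2 fold change of 0.20 ± 0.05 (SE) with 9 libraries did not pass (limma adjusted p of 0.0686). Gsdmd, the pore protein, averaged 77.8 ± 9.85 TPM in KO (SD, n = 5) and 69.6 ± 4.07 TPM in WT replicates 1, 5, 6 and 7 (SD, n = 4), and the ranges overlapped (limma adjusted p of 0.395 with 9 libraries). Casp4, the intracellular receptor for lipopolysaccharide known in mice also as caspase 11, was low at 5.47 to 6.02 TPM in KO and 5.17 to 7.62 TPM in those WT libraries, against 19.4, 20.0 and 14.6 TPM in WT replicates 2, 3 and 4.

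The cytokine substrates of caspase 1 were scarce. Il1b was at 0.43, 0.51, 0.47, 1.22 and 0.60 TPM in KO and between 0.37 and 2.51 TPM in WT, with a median of 1.11 TPM. It entered the test through WT replicates 2, 3, 4 and 5 and KO replicate 4, which reached 1 TPM. Of these, WT replicates 2, 3 and 4 are not among the 9 libraries. With 9 libraries the log2 fold change of Il1b was -0.07, with a 95% interval of -0.46 to 0.31. Il18 averaged 8.64 ± 1.61 TPM in KO (SD, n = 5) and 8.18 ± 1.26 TPM in WT (SD, n = 7). Its log2 fold change was 0.06 with 9 libraries, with a 95% interval of -0.24 to 0.37.

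**Figure D2:**
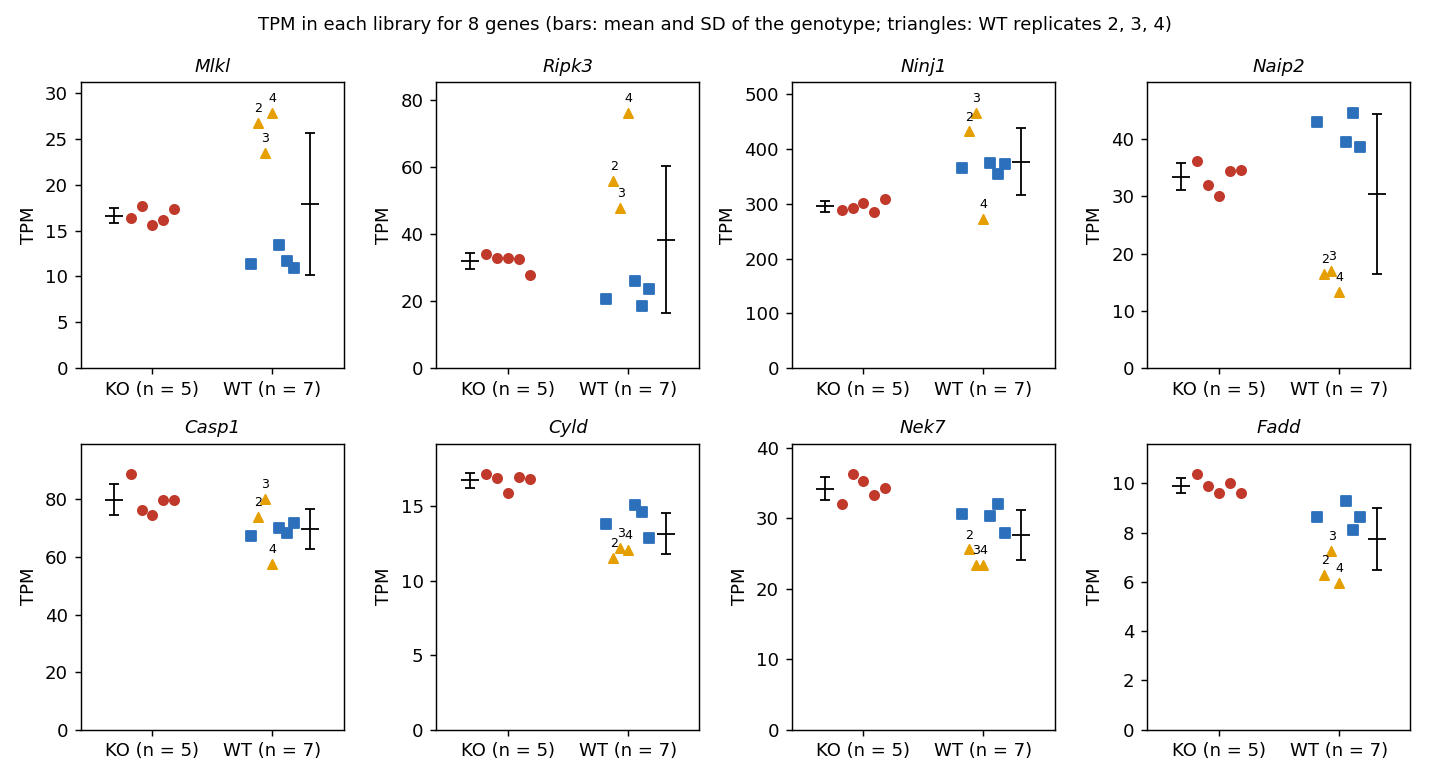
TPM in each library (points; linear axes from 0) for 8 genes, with KO at the left and WT at the right of each panel, and the mean and SD of each genotype beside the points. For Mlkl and Ripk3 the KO values lie between WT replicates 1, 5, 6 and 7 (squares) below and WT replicates 2, 3 and 4 (triangles, numbered) above, and for Nek7, Fadd and Cyld they lie above all 7 WT libraries.

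Of the 9 death receptor genes, 0 passed the threshold in either set of libraries (limma). At an unadjusted limma p under 0.05, 2 were higher with 9 libraries and 3 with 12, beside 14.6% and 14.3% of all genes. In either set 0 were lower, beside 4.29% and 3.22% of all genes. All 9 had positive log2 fold changes in both sets, with medians of 0.07 and 0.11, beside 67.5% and 57.9% of all genes with positive values. After median-ratio scaling of the libraries, which removes the shift of the median gene, 8 of 9 were positive with 9 libraries. Over all genes 5794 of 11152 were then positive, and Tnfrsf1a was at -0.00092. Cyld, the deubiquitinase that removes ubiquitin chains from RIPK1 and so permits death signalling, was at 17.2, 16.9, 15.9, 17.0 and 16.8 TPM in KO, against a lowest value of 11.6, a median of 12.9 and a highest of 15.1 TPM in WT. All KO libraries lay above all WT libraries. The log2 fold change was 0.23 ± 0.0522 (SE) with 9 libraries and 0.33 ± 0.0704 with 12, with limma adjusted p-values of 0.0505 and 0.127, so neither passed.

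Fadd, the adaptor that recruits caspase 8, was at 10.4, 9.91, 9.62, 10.01 and 9.63 TPM in KO, against a lowest value of 5.95, a median of 8.13 and a highest of 9.29 TPM in WT. The genotypes did not overlap, and the log2 fold changes of 0.17 and 0.33 with 9 and 12 libraries had limma adjusted p-values of 0.101 and 0.214. Ripk1, the kinase at the branch between survival and death, averaged 38.8 ± 0.512 TPM in KO and 37.0 ± 1.28 TPM in WT (SD, n = 5 and n = 7). Ripk1 overlaps Serpinb6a on the opposite strand, which is far more abundant (median of 337 TPM), and the handling of strand is not given in the sources used here. Casp8, the protease that restrains necroptosis, averaged 76.2 ± 4.34 TPM in KO and 70.5 ± 4.97 TPM in WT. Its catalytically inactive relative Cflar averaged 52.6 ± 2.45 TPM in KO and 45.5 ± 5.38 TPM in WT. Over WT replicates 1, 5, 6 and 7 alone, Cflar averaged 49.6 ± 2.60 TPM (SD, n = 4), and the ranges overlapped with KO. WT replicates 2, 3 and 4 lay between 39.3 and 41.1 TPM. The log2 fold change of Cflar with 9 libraries was 0.09 (limma adjusted p of 0.37).

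Tnfrsf1a, the main receptor for tumour necrosis factor, averaged 99.4 ± 2.69 TPM in KO and 91.8 ± 7.24 TPM in WT. Its adaptor Tradd averaged 39.4 ± 1.34 TPM in KO and 36.6 ± 3.43 TPM in WT (SD, n = 5 and n = 7). Over WT replicates 1, 5, 6 and 7 alone, Tnfrsf1a averaged 96.4 ± 4.42 TPM and Tradd 37.9 ± 2.90 TPM (SD, n = 4). The ubiquitin ligase genes Birc2 and Birc3, which hold RIPK1 in its survival complex, averaged 8.63 ± 0.153 and 20.9 ± 2.39 TPM in KO, against 8.30 ± 0.678 and 19.6 ± 1.44 TPM in WT. With 9 libraries the 95% interval of the log2 fold change was -0.02 to 0.14 for Ripk1, -0.04 to 0.13 for Tnfrsf1a, -0.03 to 0.17 for Casp8 and -0.12 to 0.24 for Birc3.

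Both necroptosis genes rose with 9 libraries. Mlkl (chromosome 8, 111311797 to 111338177, minus strand), which encodes the protein that breaches the membrane, was at 16.4, 17.6, 15.6, 16.1 and 17.4 TPM in KO, against 11.4, 13.4, 11.7 and 10.9 TPM in WT replicates 1, 5, 6 and 7 and 26.7, 23.4 and 27.8 TPM in WT replicates 2, 3 and 4. The KO libraries lay between the 2 kinds of WT library and overlapped neither. With 9 libraries the log2 fold change was 0.46 ± 0.0643 (SE), a 1.38-fold level (limma adjusted p of 0.0109), and the call was kept whichever library was left out, with adjusted p-values between 0.00754 and 0.0487. With 12 libraries the log2 fold change was 0.00 ± 0.247 (limma adjusted p of 0.999), and WT held values on both sides of KO.

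Ripk3 (chromosome 14, 55784995 to 55788865, minus strand), the kinase that phosphorylates MLKL, was at 34.1, 32.8, 32.8, 32.7 and 27.7 TPM in KO, against 20.7, 25.9, 18.6 and 23.6 TPM in WT replicates 1, 5, 6 and 7 and 55.8, 47.7 and 76.2 TPM in WT replicates 2, 3 and 4. The KO libraries again overlapped neither kind of WT library, although KO replicate 5 and WT replicate 5 were close. With 9 libraries the log2 fold change was 0.52 ± 0.0946 (SE), a 1.43-fold level (limma adjusted p of 0.0266), and with 12 it was -0.07 ± 0.326 (adjusted p of 0.891). The call with 9 libraries was lost in 5 of 9 cases when a further library was left out, namely KO replicates 2, 3 and 4 and WT replicates 1 and 7, with adjusted p-values up to 0.0902.

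Stromal and neutrophil transcripts varied within KO. In KO replicates 1 and 5, the libraries with the most and the fewest neutrophil transcripts (6268 and 1013 TPM) and the fewest and the most stromal transcripts (191 and 606 TPM), Mlkl was 16.4 and 17.4 TPM, Ninj1 288 and 308 TPM and Naip2 36.1 and 34.5 TPM. For Ripk3 the same 2 libraries held 34.1 and 27.7 TPM, the highest and the lowest KO values. In WT replicates 2, 3 and 4, where the stromal sum was 5456, 3909 and 9804 TPM, Ripk3 was highest in replicate 4 and lowest in replicate 3, in the order of that sum. Mlkl followed the same order there, at 26.7, 23.4 and 27.8 TPM. Ninj1 (432, 466 and 272 TPM) and Naip2 (16.5, 16.9 and 13.4 TPM) ran in the opposite order. Within KO, by contrast, Ripk3 was lowest in replicate 5, where the stromal sum was highest. The part of other cells in the levels of these 4 genes was not tested.

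**Figure D3:**
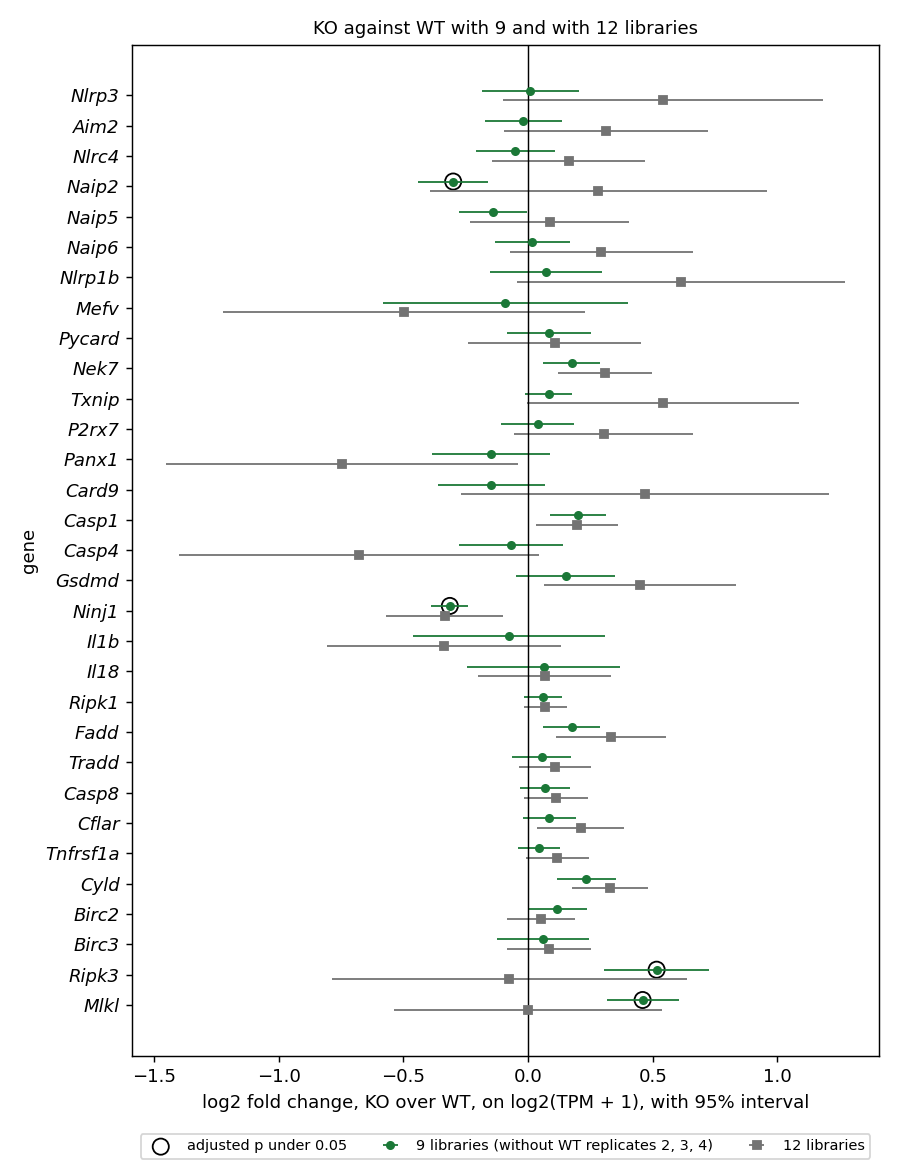
Log2 fold change of KO over WT (points) with its 95% interval (lines) for the 31 tested genes, on the log2(TPM + 1) scale, with 9 libraries as circles above 12 libraries as squares, and genes with an adjusted p under 0.05 ringed. The ringed genes are Mlkl and Ripk3 to the right of 0 and Ninj1 and Naip2 to the left, all with 9 libraries, and the intervals with 12 libraries are wider for most genes.

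Over all members, the KO libraries lay above WT replicates 1, 5, 6 and 7 without overlap in 7 of 31 (Casp1, Nek7, Ripk3, Mlkl, Fadd, Cyld and Birc2), beside 7.09% of all genes, and below them in 2 of 31 (Ninj1 and Naip2), beside 2.08%. By role, 0 of 8 tested sensors lay above and 1 below, 1 of 6 adaptors and regulators lay above, 1 of 6 effectors lay above and 1 below, 3 of 9 death receptor genes lay above, and both necroptosis genes lay above.

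WT replicates 2, 3 and 4 were also set beside the other 4 WT libraries, gene by gene. These libraries were told apart by measured values, so no test was made. Of the 31 tested members, 16 lay lower in all 3 libraries than in all of WT replicates 1, 5, 6 and 7, and 6 lay higher, beside 28.3% and 29.9% of all genes. The low ones included 7 of 8 tested sensors (Nlrp3, Aim2, Nlrc4, Naip2, Naip5, Naip6 and Nlrp1b, but not Mefv), 4 of 6 adaptors and regulators (Nek7, Txnip, P2rx7 and Card9), 1 of 6 effectors (Gsdmd) and 4 of 9 death receptor genes (Fadd, Cflar, Tnfrsf1a and Cyld). The high ones were Panx1, Casp4, Il1b, Birc2 and both necroptosis genes. Il1b passed the filter of 1 TPM only through its values in WT replicates 2, 3 and 4, so its place in this count is not independent of them. All 16 low members were also below all 5 KO libraries, and Casp4, Panx1, Ripk3 and Mlkl were also above all 5 (beside 25.5% and 23.6% of all genes lower and higher than in the other 9 libraries).

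The gap was wide for the sensors Nlrp3 (at most 18.7 TPM in WT replicates 2, 3 and 4, against at least 34.4 TPM in the other WT libraries), Naip2 (16.9 against 38.6 TPM) and Nlrp1b (4.47 against 8.25 TPM). Among effectors, Gsdmd was at 45.5, 45.9 and 36.9 TPM in these 3 libraries, against 66.0 to 73.2 TPM in WT replicates 1, 5, 6 and 7, while Casp4 lay on the opposite side and Casp1, Ninj1 and Il18 overlapped. Of the 10 macrophage markers, 4 (Csf1r, Fcgr1, Cd14 and C1qa) lay lower in all of WT replicates 2, 3 and 4 than in all of WT replicates 1, 5, 6 and 7, and the other 6 overlapped. Within these 3 libraries, replicate 4 had the lowest value for all 8 tested sensors and the highest stromal sum. The part of other cells in these differences was not tested.

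**Figure D4:**
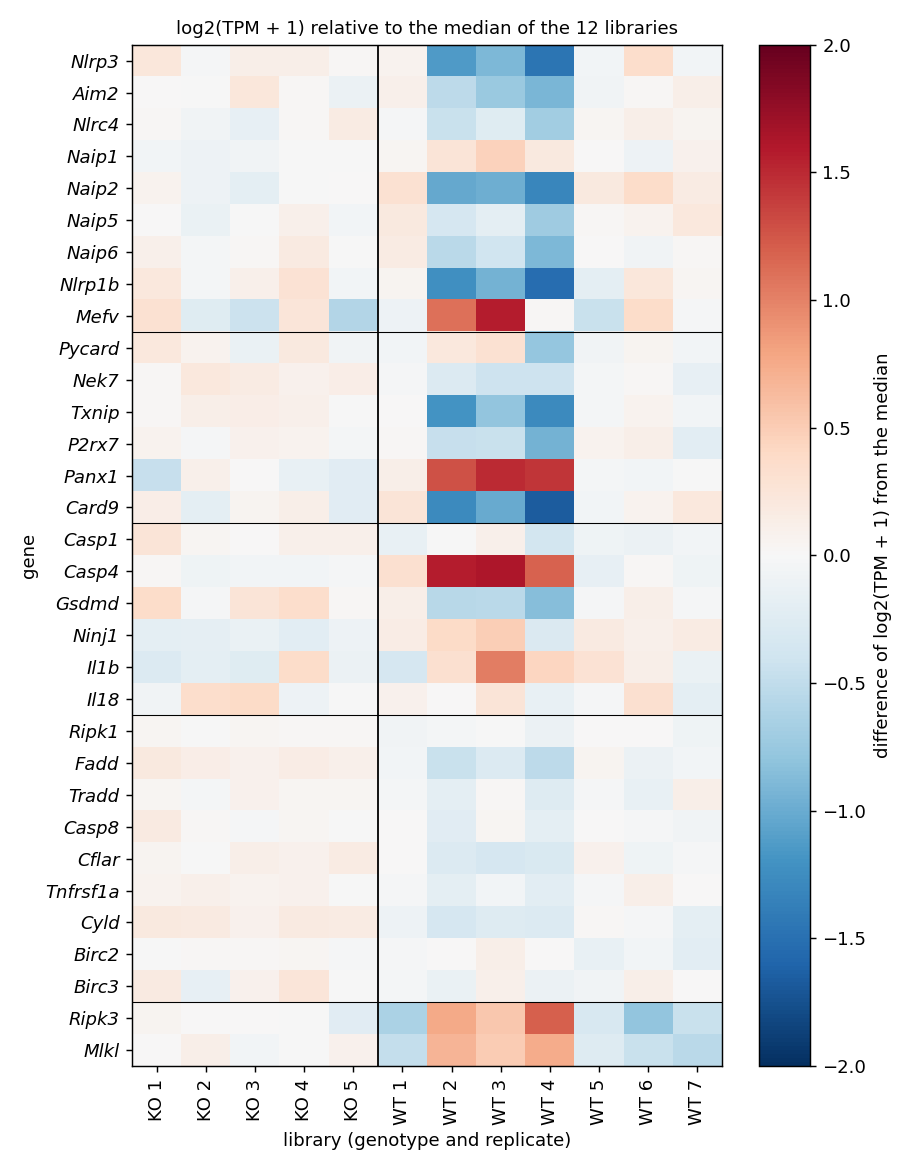
Difference of log2(TPM + 1) from the median of the 12 libraries (colour) for the 32 genes (rows, by role) in each library (columns, KO at the left of the line and WT at the right). In WT replicates 2, 3 and 4, 7 of the 9 sensors are blue in all 3 columns and Naip1 and Mefv are not; the lowest cell is -1.66 for Card9, and Casp4, Panx1, Ripk3, Mlkl and Il1b are red.

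Other genes of these pathways were described from a list of 76, of which 73 matched the table and 63 were tested. With 9 libraries limma called 2 higher and 1 lower, beside 1.61% and 0.717% of all genes, and at an unadjusted p under 0.05 there were 19 higher and 3 lower, beside 14.6% and 4.29%. With 12 libraries limma called 0, beside 0.126% of all genes, and 14 were higher and 3 lower at an unadjusted p under 0.05, beside 14.3% and 3.22%. Gsdme, a gasdermin cut by caspase 3, was at 15.98, 15.1, 15.9, 15.1 and 13.7 TPM in KO, against a lowest value of 9.45, a median of 11.9 and a highest of 13.5 TPM in WT, with no overlap. Its log2 fold change with 9 libraries was 0.30 ± 0.0637 (limma adjusted p of 0.0448). The span of the Gsdme gene overlaps that of Mpp6, at a median of 58.6 TPM. Whether their transcripts share sequence was not examined, so the level of Gsdme may be uncertain. Syk, the kinase upstream of CARD9, was at 82.5 to 83.9 TPM in KO and 70.0 to 76.5 TPM in WT replicates 1, 5, 6 and 7, with log2 fold change 0.19 for 9 libraries (adjusted p of 0.0228 by limma), but at 79.1 to 103 TPM in WT replicates 2, 3 and 4.

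Ikbkg, which encodes the NF-kB regulator NEMO, was at 67.1, 71.8, 80.3, 69.5 and 75.1 TPM in KO, against a lowest value of 84.2, a median of 97.5 and a highest of 147 TPM in WT, with no overlap. Its log2 fold change with 9 libraries was -0.33 ± 0.0612 (limma adjusted p of 0.0266). The span of the Ikbkg gene overlaps that of G6pdx on the opposite strand. Shared transcript sequence was not examined here either, so the level of Ikbkg may be uncertain. When a further library was left out of the 9, the call was kept in 2 of 9 cases for Gsdme, 4 for Ikbkg and 4 for Syk, and the calls of Gsdme and Syk were also lost under median-ratio scaling.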

How the data were processed

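Per the labels' protocols, total RNA of 12 BMDM libraries was purified with RNeasy columns, prepared with NEBNext Ultra reagents and read on a NovaSeq in pairs (51 bases each). The submitters' processing notes name Salmon 1.2.0, bcl2fastq and mm10. For the annotation, the handling of strand and the step to gene level, details were not given in the sources used here. TPM, as the authors deposited them, summed to between 940127 and 947987 per library over the 23438 genes listed. A rise of abundant transcripts therefore lowers all other values, and depth is unknown.

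Symbols and coordinates came from GENCODE M21 (GRCm38, mm10), which named 23423 of the IDs, and promoters from RefSeq. Columns were matched through the library descriptions. No libraries held identical values. The test was limma-trend (limma 3.58.1, R 4.3.3) on log2(TPM + 1), over 11152 genes (a minimum of 1 TPM in 5 or more libraries), with genotype as the only term, Benjamini-Hochberg adjustment over these genes and a threshold of 0.05. The fits were also run on simulated data, drawn independently for each gene and library. These held no set of WT libraries that stood apart, so that run cannot show how the fits behave with such a set. Errors of fold changes are standard errors and errors of levels are SDs. The members, the lists, the split of the WT libraries and the tests were chosen with earlier results of these data known. All 32 members are named, and other pathway genes only where they were called. Of the pathway genes listed, 3 had no match and were not analysed here. Marker lists of dendritic, T and NK, B, mast, erythroid, endothelial and epithelial cells summed to at most 32.7 TPM in any library. Alternatives were no filter, a mean of at least 5 TPM, a pseudocount of 0.1, median-ratio scaling, sample quality weights, leaving out libraries, and a replicate block.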

Additional observations from a re-analysis of the deposited data

Results flagged for a closer look

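In 4 of the 64 groups examined (32 genes in each genotype), the highest or lowest library lay far from the others. Chance alone gives about 1 in 20 such groups. Il1b in KO replicate 4 was at 1.22 TPM, against 0.43 to 0.60 TPM in the other KO libraries. Ripk3 in KO replicate 5 was at 27.73 TPM, against 32.66 to 34.07 TPM. Casp8 in KO replicate 1 was at 83.61 TPM, against 72.83 to 75.67 TPM. Cyld in KO replicate 3 was at 15.88 TPM, against 16.81 to 17.15 TPM.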

How the results depend on the processing

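Calls among the 31 tested members changed with the libraries used and with their weights. With all 12 libraries, 14 genes were called in all (12 higher and 2 lower) and 0 members; without WT replicates 2, 3 and 4 there were 260 (180 higher and 80 lower), with 2 members higher and 2 lower. Sample quality weights called 759 genes with 12 libraries, 4 members higher (Mlkl, Casp1, Nek7 and Cyld) and 1 lower (Ninj1), and 758 with 9 libraries, with 5 members higher and 2 lower (Ninj1 and Naip2). Median-ratio scaling called 4 genes with 12 libraries (2 higher and 2 lower) and, with 9, 84 higher and 134 lower. The 4 member calls with 9 libraries were kept under this scaling, the pseudocount of 0.1 and the stricter filter. Without a filter, 1 member was higher and 1 lower, since Ripk3 and Naip2 lost their calls. Leaving out each library gave 2 (without KO replicate 5) to 36 genes (without WT replicate 6) with 12 libraries. With 9 it gave 51 (without WT replicate 1) to 462 (without WT replicate 6), and 1 to 3 members higher and 1 to 2 lower; 82 to 125 genes were called without KO replicate 2, 3 or 4 or WT replicate 5, and 72 without WT replicate 7.

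The replicate block gave 0 genes in the 10 libraries numbered 1 to 5 (limma; 3706 at an unadjusted p under 0.05), against 13 without it. In the 4 libraries numbered 1 and 5, without WT replicates 2, 3 and 4, limma called 0 genes and 0 members with the block and 0 without it (897 and 825 at an unadjusted p under 0.05). No label pairs the libraries, and same-numbered libraries deviated together with correlations of -0.224 to 0.222.

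Signs with 12 libraries turned, under at least 1 setting, for 9 of the 31 members. Without WT replicates 2, 3 and 4 the log2 fold changes became -0.019 for Aim2, -0.052 for Nlrc4, -0.30 for Naip2, -0.14 for Naip5, -0.15 for Card9 and 0.52 for Ripk3. With sample quality weights they became -0.034 for Nlrc4, -0.24 for Naip2, -0.14 for Naip5, -0.11 for Card9 and 0.44 for Ripk3. Mlkl turned to -0.049 under median-ratio scaling and to -0.21 in the 10 libraries with and without the replicate block. Over single libraries left out, the ranges that crossed 0 were -0.00057 to 0.12 for Il18, -0.094 to 0.12 for Mlkl, -0.012 to 0.14 for Naip5, -0.014 to 0.17 for Pycard and -0.21 to 0.12 for Ripk3. The cause was not tested. TPM holds no depth, so the precision of low members such as Il1b and Naip1 is unknown.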
